A study of Mus musculus with 8 samples.

Results

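The 42 genes described here carry fatty acids into the myofiber and through beta-oxidation. They were chosen by name, step by step along the pathway, and each has 1 row in the table of counts, so they are 42 of 27041 genes listed. RNA-seq libraries were made from skeletal muscle of 9-week-old male C57BL/6J mice, which the paper names as gastrocnemius. Ctrl mice carry LSD1L2/L2, in which the first exon of *Kdm1a*, the gene for the demethylase LSD1, is floxed, and have no Cre. LSD1skm-/- mice carry the same floxed alleles and HSA-Cre, which is active in myofibers, so that other cells of the muscle keep LSD1. Counts of 4 Ctrl and 2 LSD1skm-/- libraries were compared, and LSD1skm-/- replicates 3 and 4 were not analysed here. Ctrl replicates 1 to 4 had 36355538, 32616912, 36213735 and 41278769 counted reads in all, and LSD1skm-/- replicates 1 and 2 had 30654828 and 37788092. Nothing in the labels says that replicates are separate animals, so p-values measure only the spread between these samples.

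Long-chain fatty acids reach muscle as free acids or are released from lipoproteins by lipoprotein lipase, cross the membrane with the help of carriers, and are activated to acyl-CoA. The carnitine shuttle, which malonyl-CoA holds back, brings them into mitochondria, where each turn of beta-oxidation removes an acetyl-CoA and passes electrons to the respiratory chain. Oxidative fibers depend on this route more than fast glycolytic ones, and fasting raises it.

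*Kdm1a* was read first as a check of the labels. It had 793, 713 and 968 reads in Ctrl replicates 1 to 3, 160 in the library labelled Ctrl replicate 4, and 94 and 131 in LSD1skm-/- replicates 1 and 2. The targeted gene therefore goes against the label of 1 library. On the first principal component of log2 CPM over the genes tested, with 50% of the variance, this library lay at 22.1, LSD1skm-/- replicates 1 and 2 at 22.2 and 25.4, and Ctrl replicates 1 to 3 between -25.2 and -21.4. The library was not moved to another group, and tests of genes were made with all 6 libraries and again without it. The log2 fold change of *Kdm1a*, LSD1skm-/- over Ctrl, was -2.56 (SE 0.74) with all libraries and -2.91 (SE 0.17) without that library, with adjusted p = 0.557 and 0.000579 by Benjamini-Hochberg in edgeR's quasi-likelihood test. An exact permutation test of a single value cannot give a p-value under 0.0667 with 4 against 2 libraries, or under 0.1 with 3 against 2.

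Levels are given below as CPM, which are counts brought to a common depth with TMM scaling. The 8 skeletal muscle markers, led by *Myh4*, summed to between 149586 and 168010 CPM in Ctrl replicates 1 to 3, to 140851 in the library labelled Ctrl replicate 4 and to 137053 and 143910 in the LSD1skm-/- libraries, and none was at 0, so the labelled tissue had its defining transcripts in every library. The 8 fast-twitch markers, also led by *Myh4*, summed to between 148427 and 166463 in Ctrl replicates 1 to 3, to 133160 in the library labelled Ctrl replicate 4 and to 132530 and 136977 in LSD1skm-/- libraries. For both lists the LSD1skm-/- sums lay below Ctrl replicates 1 to 3, and overlapped Ctrl only through the library labelled Ctrl replicate 4. The lists share *Myh4*, *Myh1*, *Tnnt3* and *Actn3*. Mean CPM of *Myh4* was 53639 in Ctrl replicates 1 to 3 and 37429 in LSD1skm-/-. Of the 8 skeletal muscle genes, 4 had a log2 fold change above 0 in each comparison, with medians of 0.03 and 0.04. Of the 8 fast-twitch genes, 3 did with all libraries and 2 without the library labelled Ctrl replicate 4. The 8 slow-twitch markers, led by *Myl3*, summed to 1349, 1136 and 2259 CPM in Ctrl replicates 1 to 3, 1307 in the library labelled Ctrl replicate 4, and 466 and 845 in LSD1skm-/- replicates 1 and 2. Both LSD1skm-/- sums lay below every Ctrl sum. Of the 8 genes, 7 were lower past p and fold, as defined below, in each comparison, against 2.88% of all genes with all libraries and 5.05% without the library labelled Ctrl replicate 4. An adjusted p of 0.05 was passed by none with all libraries and by 2, both lower, without that library. In bulk muscle, fewer cells of a type and less RNA per cell cannot be told apart.

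White fat markers split the libraries in another way. The 10 adipocyte genes, led by *Fabp4*, summed to 377, 327 and 188 CPM in Ctrl replicates 1 to 3, 548 in the library labelled Ctrl replicate 4, and 215 and 231 in LSD1skm-/- replicates 1 and 2. *Fabp4* alone had 253, 207 and 165 CPM in Ctrl replicates 1 to 3, 353 in the library labelled Ctrl replicate 4, and 163 and 168 in LSD1skm-/- libraries. The sum thus mostly reads that gene. Of the defining genes, *Adipoq* had 12.8, 9.68 and 0.781 CPM in Ctrl replicates 1 to 3, 19.5 in the library labelled Ctrl replicate 4, and 0.126 and 0.557 in LSD1skm-/- replicates 1 and 2, and *Adrb3* was at 0 in LSD1skm-/- replicate 1. By *Adipoq* Ctrl replicate 3 thus stood near the LSD1skm-/- libraries and apart from the other Ctrl libraries. *Thrsp*, a gene of the list singled out after its values were seen, did not follow, with 25.1, 20.5 and 16.7 CPM in Ctrl replicates 1 to 3, 55.7 in the library labelled Ctrl replicate 4, and 49.3 and 53.3 in LSD1skm-/- replicates 1 and 2. For *Thrsp* the log2 fold change was 0.80 (SE 0.43, adjusted p = 0.581 by Benjamini-Hochberg in edgeR's quasi-likelihood test), and 1.31 (SE 0.16, adjusted p = 0.00602, under 0.05 in 9 of 10 settings but 0.0652 without LSD1skm-/- replicate 2 as well) without the library labelled Ctrl replicate 4. Of the 7 adipocyte genes tested, 5 were lower past p and fold in each comparison, with medians of -3.54 and -3.25, against 2.88% and 5.05% of all genes. Fat cells also express several of the 42 genes, and their part in any difference below was not tested.

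All 42 members were among the 11364 genes with a mean count above 50, which were tested. As levels can be compared between genes only per length, CPM were divided by the kilobases of annotated exon. The level of the median member was 33.1 CPM per kilobase, as the mean over Ctrl replicates 1 to 3. *Pdk4*, the kinase that shuts pyruvate dehydrogenase when fat is burned, was highest at 341 CPM per kilobase, ahead of the fatty acid binding protein *Fabp3* at 167 and the long-chain acyl-CoA dehydrogenase *Acadl* at 142. This order did not hold in each library. In Ctrl replicate 2 *Pdk4*, at 105, was below 5 other members, with *Fabp3* highest at 138, and in Ctrl replicate 3 *Ucp3*, at 131, was above *Acadl*, at 126. With the longest coding transcript as length *Lpl*, otherwise at 80.6, came next after *Pdk4*, at 205. The lowest were *Acaca*, at 0.373, and *Cpt1a*, at 0.881, the isoforms of acetyl-CoA carboxylase and carnitine palmitoyltransferase that prevail outside muscle. *Acacb*, the muscle isoform of the former, had 38.1 CPM per kilobase.

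**Figure D1:**
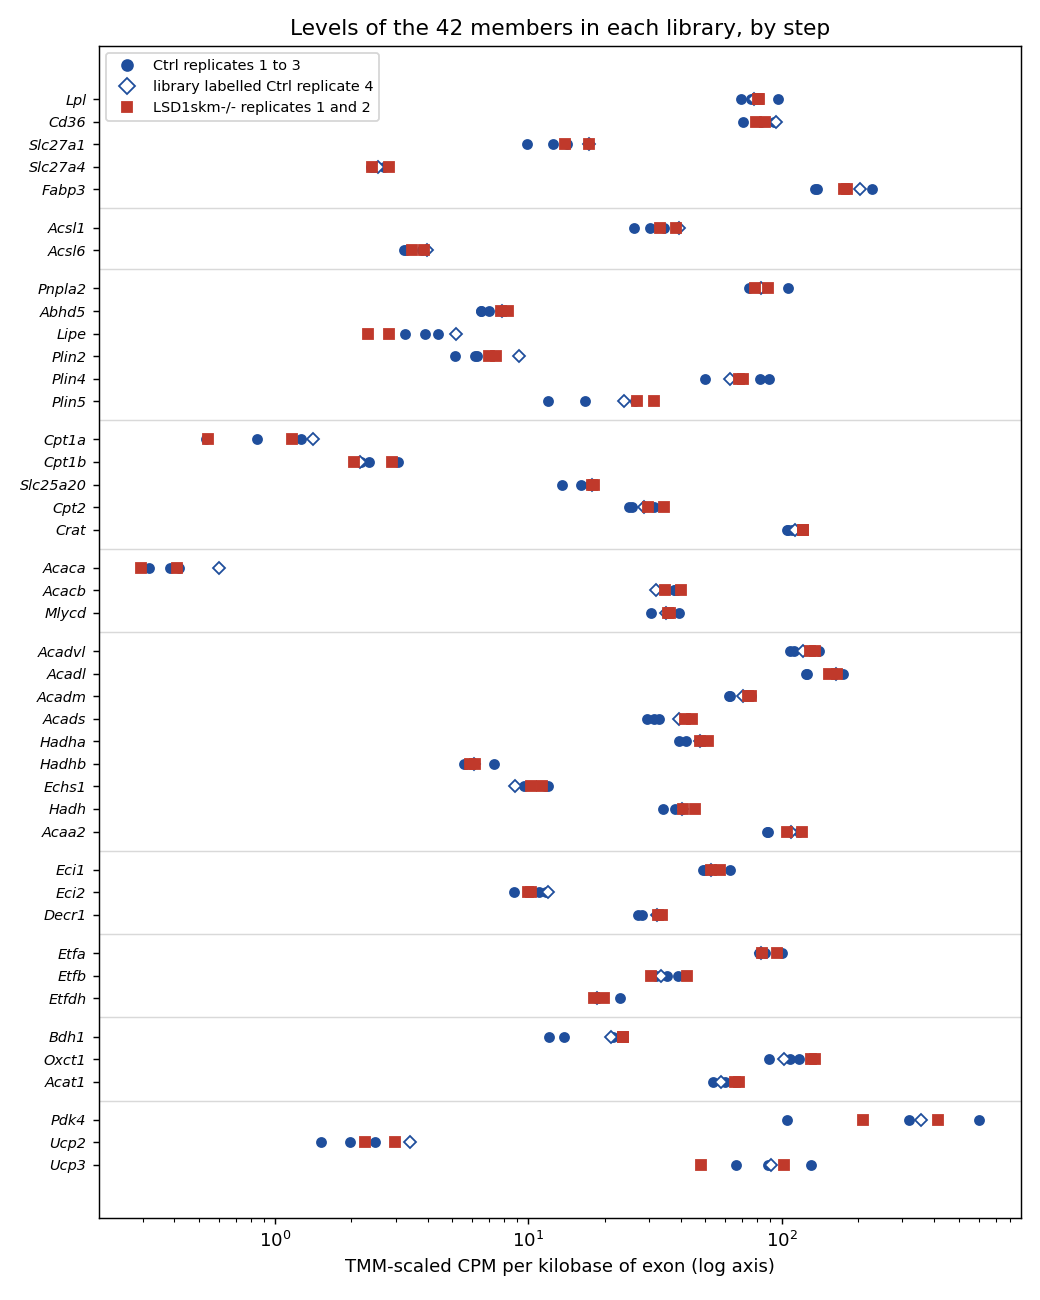
TMM-scaled CPM per kilobase of exon (log axis) of the 42 members, grouped by step, with 1 point per library: Ctrl replicates 1 to 3 as circles, the library labelled Ctrl replicate 4 as open diamonds and LSD1skm-/- replicates 1 and 2 as squares. Means over Ctrl replicates 1 to 3 run from 0.373 for Acaca to 341 for Pdk4, and for most members the groups overlap.

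Few members passed a test. The study's thresholds are a p under 0.05 in DESeq2 and a fold change above 1.3 or below 0.77. They were applied here in edgeR, with p read as unadjusted. With all 6 libraries, 1 of the 42 (*Lipe*, lower) passed them, or 2.38%, against 6.31% of all genes tested. Of all genes, 3.43% passed them as higher and 2.88% as lower. An unadjusted p under 0.05 alone was reached by 3 members (*Acads*, *Lipe* and *Oxct1*), or 7.14%, against 8.9%. No member and 0% of all genes had an adjusted p under 0.05 by Benjamini-Hochberg in edgeR's quasi-likelihood test, whereas 1011 genes had an unadjusted p under 0.05 and 46 genes, none a member, passed an adjusted p in DESeq2. With no filter beyond 1 count, *Lipe* had an adjusted p of 0.0482 in edgeR. The share past p and fold rested on single libraries and on scaling. It was 3 members, or 7.14%, against 4.17% of all genes when Ctrl replicate 1 was left out, 2, or 4.76%, against 5.07% without Ctrl replicate 2 and against 7.01% without LSD1skm-/- replicate 1, and 0 against 2.99% without LSD1skm-/- replicate 2. With scaling by library size alone it was 3, or 7.14%, against 5.1%, and with no filter 3, or 7.14%, against 7.06%, so that members were then not below all genes.

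Without the library labelled Ctrl replicate 4 more of both passed. The thresholds of p and fold were met by 3 members, *Acads* and *Bdh1* higher and *Lipe* lower, or 7.14%, against 15.2% of all genes, of which 10.1% of those tested were higher and 5.05% lower. An unadjusted p under 0.05 was reached by 6 members, or 14.3%, against 20.2%. The adjusted p was under 0.05 for 1 member, *Acads*, or 2.38%, against 5.39% of all genes. When Ctrl replicate 1 was left out as well, 7 members, or 16.7%, passed p and fold, against 14.7% of all genes, and *Bdh1* and *Plin5* in place of *Acads* passed the adjusted p. With scaling by library size alone 7 members, or 16.7%, passed p and fold, against 16.3%. The share of members was thus below that of all genes with TMM scaling of these 5 libraries, but not in those 2 settings. Of the 1724 genes past p and fold, 66.7% were higher, and 80% of 1853 were with scaling by library size alone.

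Most members lay slightly above Ctrl. The log2 fold change was above 0 for 31 of 42 members with all libraries, or 73.8%, against 48.6% of all genes, and for 29, or 69%, against 49% without the library labelled Ctrl replicate 4. The median over members was 0.06 with all libraries and 0.10 without that library, against -0.01 over all genes in both. It rested on single libraries. From the 6, it was 0.13 without Ctrl replicate 1, 0.03 without Ctrl replicate 2 and 0.11 without LSD1skm-/- replicate 2, and leaving out 1 more beside the library labelled Ctrl replicate 4 gave 0.18 for Ctrl replicate 1 and 0.05 for Ctrl replicate 2. Without *Cd36*, *Lpl*, *Lipe*, *Pnpla2*, *Plin4* and *Acaca*, it was 0.13 with all libraries and 0.16 in the comparison of 5. Each of these genes lay below the median in both comparisons, so leaving them out could only raise it. Both LSD1skm-/- libraries lay above every Ctrl library for 6 members, or 14.3%, against 9.8% of all genes, and below every one for 1, or 2.38%, against 8.02%. Without the library labelled Ctrl replicate 4 these were 9 members, or 21.4%, against 20.3%, and 1, or 2.38%, against 17.3%. The number of members with a log2 fold change above 0 was 31 to 33 of 42 under the other scalings with all libraries, and 27 to 36 without the library labelled Ctrl replicate 4. It was 23, or 54.8%, against 48.3% of all genes without Ctrl replicate 2 and 35 without Ctrl replicate 1, and 23 and 34 when these were left out beside the library labelled Ctrl replicate 4. The 42 genes are read from the same libraries and are not replicates, and no test was made of the list.

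**Figure D2:**
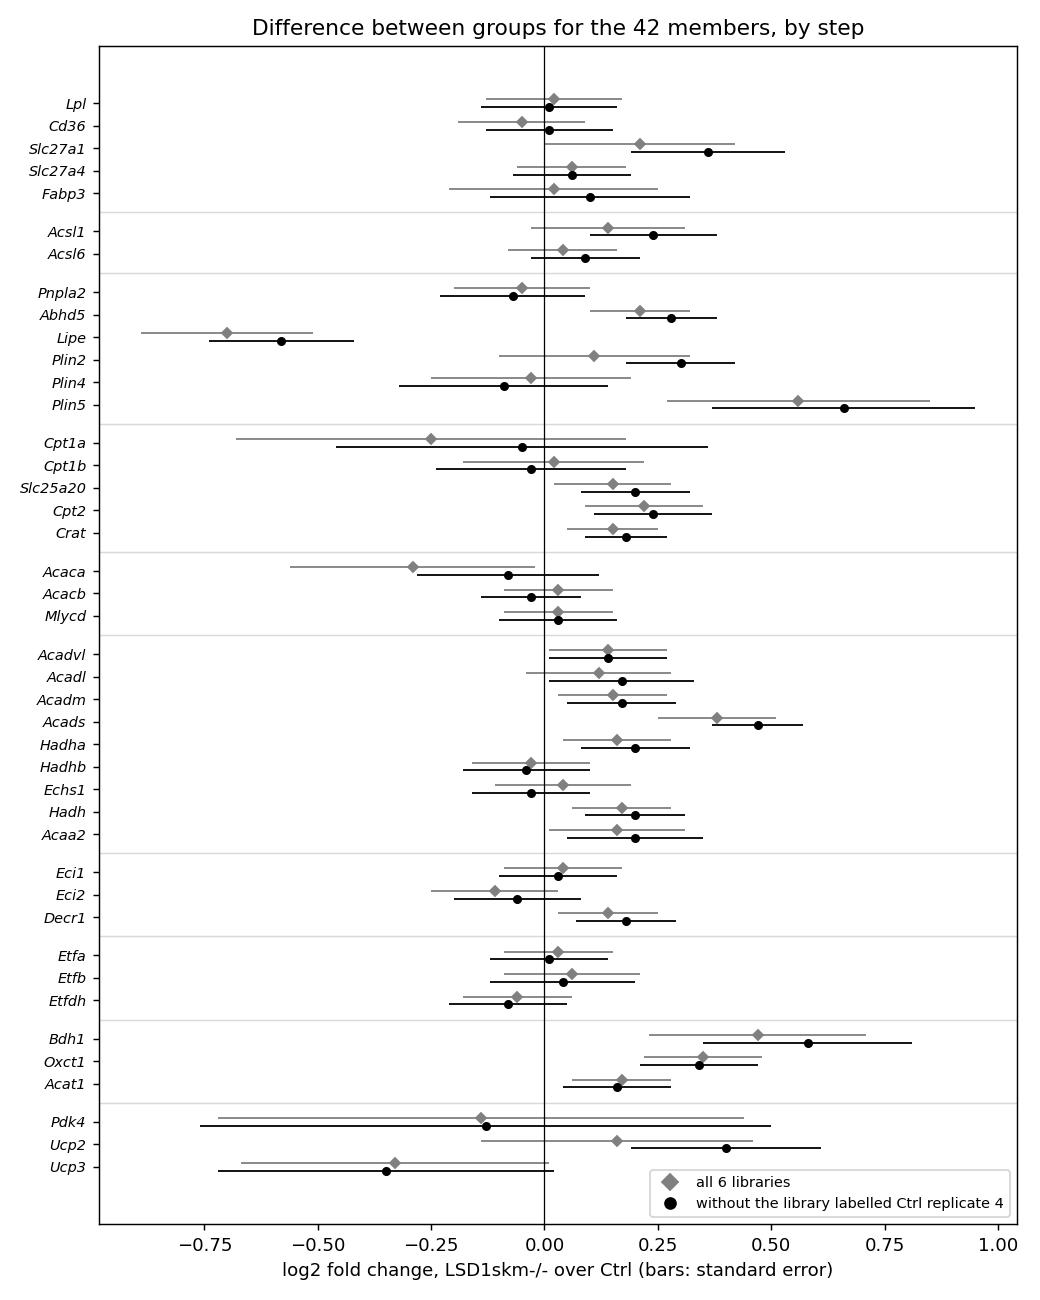
log2 fold change (LSD1skm-/- over Ctrl) of the 42 members by step, with standard errors from edgeR as bars: diamonds with all 6 libraries, circles without the library labelled Ctrl replicate 4. Lipe is lowest and Plin5 highest in both, at -0.70 and 0.56 with all libraries.

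The Ctrl libraries differed among themselves by as much. Among Ctrl replicates 1 to 3, replicate 1 had the highest log2 CPM for 32 of 42 members, or 76.2%, against 32.5% of all genes, and replicate 2 the lowest for 27, or 64.3%, against 32.1%. Relative to the mean of these 3 libraries, the mean log2 CPM of the members was 0.18 higher in replicate 1, -0.19 in replicate 2 and 0.01 in replicate 3. It was 0.17 in the library labelled Ctrl replicate 4 and 0.15 and 0.08 in LSD1skm-/- replicates 1 and 2, within the range of the Ctrl libraries. *Mb*, which encodes myoglobin, the oxygen store of oxidative fibers, and was singled out after its values were seen, was likewise highest of the Ctrl libraries in replicate 1, with 3234, 2172 and 2260 CPM in Ctrl replicates 1 to 3, 2108 in the library labelled Ctrl replicate 4, and 2632 and 3294 in LSD1skm-/- replicates 1 and 2. The slow-twitch markers did not follow *Mb*. Their sum was highest of the Ctrl libraries in replicate 3, at 2259 CPM against 1349 in replicate 1. In both LSD1skm-/- libraries it was below every Ctrl library. The part of *Mb* or of fiber type in the levels of the members was not tested.

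**Figure D3:**
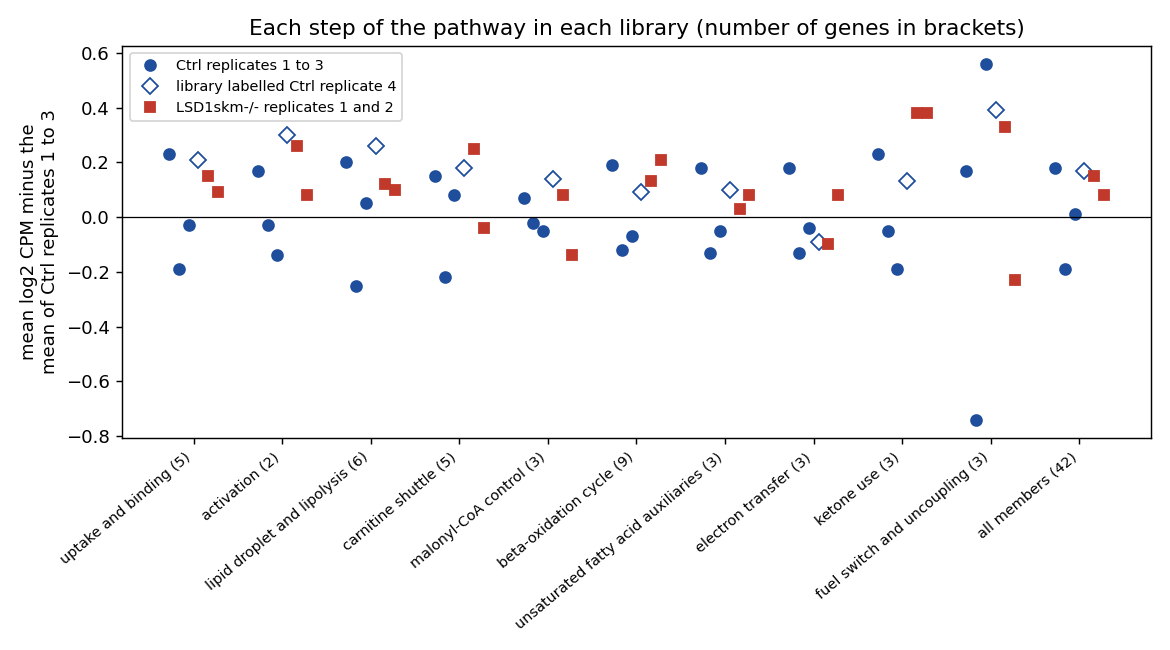
Mean log2 CPM of the members of each step in each library, minus the mean of Ctrl replicates 1 to 3 (circles, Ctrl replicates 1 to 3; open diamond, the library labelled Ctrl replicate 4; squares, LSD1skm-/- replicates 1 and 2). Only in ketone use do both LSD1skm-/- libraries, at 0.38, lie above the 4 Ctrl libraries; in fuel switch and uncoupling the Ctrl libraries run from -0.74 to 0.56.

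With TMM scaling and group as the only term in edgeR no uptake gene passed p and fold or an adjusted p of 0.05, with all libraries or without the library labelled Ctrl replicate 4. Without that library *Slc27a1* passed p and fold with scaling by library size alone, and when Ctrl replicate 1 or LSD1skm-/- replicate 2 was left out as well, as did *Fabp3* without Ctrl replicate 1. Lipoprotein lipase, *Lpl*, which frees fatty acids from lipoproteins at the capillary wall, had 1015, 727 and 792 CPM in Ctrl replicates 1 to 3, 815 in the library labelled Ctrl replicate 4, and 849 and 844 in LSD1skm-/- replicates 1 and 2. The membrane carrier *Cd36* had 335, 252 and 298 CPM in the same Ctrl libraries, 341 in the library labelled Ctrl replicate 4, and 308 and 285 in LSD1skm-/- muscle. For both genes the LSD1skm-/- values lay inside the Ctrl range. With all libraries the log2 fold change was 0.02 (SE 0.15) for *Lpl* and -0.05 (SE 0.14) for *Cd36*, and 0.01 for each without the library labelled Ctrl replicate 4. The 5 genes of this step, with the transporters *Slc27a1* and *Slc27a4* and with *Fabp3*, had log2 fold changes from -0.05 to 0.21 with all libraries and from 0.01 to 0.36 without that library. *Fabp3* shares 37.3% of its 50-base stretches with transcripts of other genes, among them a pseudogene, so its counts are uncertain.

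Activation to acyl-CoA is chiefly the work of *Acsl1* in muscle. Its CPM were 360, 316 and 274 in Ctrl replicates 1 to 3, 414 in the library labelled Ctrl replicate 4, and 402 and 347 in LSD1skm-/- replicates 1 and 2. The highest and the lowest library were both Ctrl by label. Its log2 fold change was 0.14 (SE 0.17), and 0.24 (SE 0.14) without the library labelled Ctrl replicate 4, and that of *Acsl6*, the other member of the step, was 0.04 and 0.09.

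The droplet and lipolysis genes held the extremes of the list. *Lipe*, hormone-sensitive lipase, which cleaves diacylglycerol and is most abundant in fat, had 25.9, 19.2 and 22.9 CPM in Ctrl replicates 1 to 3, 30.4 in the library labelled Ctrl replicate 4, and 16.6 and 13.7 in LSD1skm-/- replicates 1 and 2. Both LSD1skm-/- libraries lay below all 4 Ctrl libraries. The log2 fold change was -0.70 (SE 0.19, unadjusted p = 0.00694, adjusted p = 0.557 by Benjamini-Hochberg in edgeR's quasi-likelihood test), and -0.58 (SE 0.16, adjusted p = 0.0902) without the library labelled Ctrl replicate 4. An antisense transcript overlaps 15.6% of the exon bases of *Lipe*. With DESeq2 on these 5 libraries the adjusted p was 0.0185, and over 10 settings without the library labelled Ctrl replicate 4 it ran from 0.0185 to 0.38, under 0.05 in 1. With all 6 libraries and no filter beyond 1 count it was 0.0482 in edgeR. The part of fat cells was not tested. Leaving out LSD1skm-/- replicate 2 from the 6 libraries took *Lipe* out of the genes past p and fold, and no member was then past them.

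The other lipolysis genes did not follow *Lipe*. *Pnpla2*, which starts lipolysis at triglyceride, had 320, 224 and 250 CPM in Ctrl replicates 1 to 3, 251 in the library labelled Ctrl replicate 4, and 236 and 267 in LSD1skm-/- replicates 1 and 2, a log2 fold change of -0.05 (SE 0.15) and of -0.07 without that library. *Abhd5*, the coactivator of *Pnpla2*, had 41.5, 38.6 and 38.8 CPM in Ctrl replicates 1 to 3, 46.7 in the library labelled Ctrl replicate 4, and 49.7 and 46.2 in LSD1skm-/- replicates 1 and 2. Both LSD1skm-/- values exceeded those of Ctrl replicates 1 to 3, and the library labelled Ctrl replicate 4 lay between them. For *Abhd5* the log2 fold change was 0.21 (SE 0.11) and, without the library labelled Ctrl replicate 4, 0.28 (SE 0.10, adjusted p = 0.172 by Benjamini-Hochberg in edgeR's quasi-likelihood test). An antisense transcript covers 16% of the exon bases of *Abhd5*, and how strand was used in the counting is not given in the sources used here.

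Perilipins coat the droplet and control access of lipases. *Plin5*, the perilipin of oxidative tissue that ties droplets to mitochondria, had 55.1, 24.8 and 35.0 CPM in Ctrl replicates 1 to 3, 49.8 in the library labelled Ctrl replicate 4, and 55.9 and 65.1 in LSD1skm-/- replicates 1 and 2. Its lowest LSD1skm-/- value was close to that of Ctrl replicate 1, although the groups did not overlap. Its log2 fold change was the highest of the members, 0.56 (SE 0.29, adjusted p = 0.571 by Benjamini-Hochberg in edgeR's quasi-likelihood test) and 0.66 (SE 0.29, adjusted p = 0.258) without the library labelled Ctrl replicate 4. For *Plin2*, the general droplet coat protein, CPM were 18.0, 21.7 and 21.9 in Ctrl replicates 1 to 3, 32.1 in the library labelled Ctrl replicate 4, and 26.1 and 24.5 in LSD1skm-/- replicates 1 and 2. The highest value was in the library labelled Ctrl replicate 4, so the log2 fold change moved from 0.11 (SE 0.21) to 0.30 (SE 0.12, adjusted p = 0.227) when it was left out. *Plin4* had log2 fold changes of -0.03 and -0.09.

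In the carnitine shuttle, *Cpt1b*, the muscle form of the enzyme that makes acylcarnitine, had only 10.3, 7.34 and 7.92 CPM in Ctrl replicates 1 to 3, 7.32 in the library labelled Ctrl replicate 4, and 9.74 and 6.92 in LSD1skm-/- replicates 1 and 2. The groups overlapped, with a log2 fold change of 0.02 (SE 0.20), and -0.03 (SE 0.21) without that library. This level is uncertain, since 81.4% of the exon bases of *Cpt1b* are also annotated to the overlapping gene *Gm44502* on the same strand, and 93% of its 50-base stretches occur in transcripts of other genes. The 5 members of the step had log2 fold changes from -0.25 to 0.22 with all libraries. *Crat*, carnitine acetyltransferase, lay above every Ctrl library in both LSD1skm-/- libraries.

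Malonyl-CoA, the brake on the shuttle, is made in muscle by *Acacb*. It had 365, 363 and 374 CPM in Ctrl replicates 1 to 3, 308 in the library labelled Ctrl replicate 4, and 386 and 332 in LSD1skm-/- replicates 1 and 2. The 3 Ctrl replicates were close together and the LSD1skm-/- libraries lay on either side of them. Its log2 fold change was 0.03 (SE 0.12) with all libraries and -0.03 (SE 0.11) without the library labelled Ctrl replicate 4. For the 3 members, with *Acaca* and with *Mlycd*, which breaks malonyl-CoA down, it ran from -0.29 to 0.03, and from -0.08 to 0.03. The counts of *Acaca* are uncertain, as 52.6% of its 50-base stretches also occur in another gene, *Gm5182*.

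Of the 9 genes of the beta-oxidation cycle, 8 had a log2 fold change above 0 with all libraries and 7 without the library labelled Ctrl replicate 4, with medians of 0.15 and 0.17. *Acads*, the short-chain acyl-CoA dehydrogenase that acts on the last turns of the cycle, had 74.1, 70.8 and 66.6 CPM in Ctrl replicates 1 to 3 (mean 70.5 ± 3.79, SD, n = 3), 89.2 in the library labelled Ctrl replicate 4, and 94.5 and 101 in LSD1skm-/- replicates 1 and 2 (mean 97.7 ± 4.46, SD, n = 2). Both LSD1skm-/- libraries lay above all 4 Ctrl libraries, and the library labelled Ctrl replicate 4 lay nearer to them than to the other Ctrl libraries. Its log2 fold change was 0.38 (SE 0.13, adjusted p = 0.557 by Benjamini-Hochberg in edgeR's quasi-likelihood test) and 0.47 (SE 0.10, adjusted p = 0.0368) without that library. The latter call was made in 5 of 10 settings without the library labelled Ctrl replicate 4, those that kept the other 5 libraries. It was lost whenever any 1 of those 5 was left out as well, and the adjusted p ran from 0.0013 to 0.193 over the 10 settings.

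The dehydrogenase for longer chains, *Acadvl*, had 378, 300 and 291 CPM in Ctrl replicates 1 to 3, 325 in the library labelled Ctrl replicate 4, and 347 and 366 in LSD1skm-/- replicates 1 and 2. *Hadha*, the alpha subunit of the trifunctional protein, had 421, 342 and 367 CPM in Ctrl replicates 1 to 3, 418 in the library labelled Ctrl replicate 4, and 448 and 415 in LSD1skm-/- replicates 1 and 2. Ctrl replicate 1 reached the level of LSD1skm-/- muscle for both, and the groups overlapped. With all libraries the log2 fold change was 0.14 (SE 0.13) for *Acadvl* and 0.16 (SE 0.12) for *Hadha*, and 0.14 for the former and 0.20 for the latter without the library labelled Ctrl replicate 4. The range over the 9 genes was -0.03 to 0.38 with all libraries and -0.04 to 0.47 without that library. *Acadvl* is antisense to *Dvl2* over 42.9% of its exon bases, so that reads of both may be mixed. Of the 50-base stretches of *Hadhb*, the beta subunit, 62.4% occur in transcripts of other genes, and *Hadhb* had 6.18 CPM per kilobase against 43.1 for *Hadha*.

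Double bonds need auxiliary enzymes, and *Decr1*, 2,4-dienoyl-CoA reductase, had 126, 109 and 105 CPM in Ctrl replicates 1 to 3, 125 in the library labelled Ctrl replicate 4, and 126 and 131 in LSD1skm-/- replicates 1 and 2. Ctrl replicate 1 lay between the LSD1skm-/- values, so the groups overlapped. Its log2 fold change was 0.14 (SE 0.11), and 0.18 (SE 0.11) without that library, and the 3 members of the step, with the isomerases *Eci1* and *Eci2*, ran from -0.11 to 0.14 and from -0.06 to 0.18.

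Electrons from the dehydrogenases pass over the flavoprotein of *Etfa* and *Etfb* to the oxidoreductase of *Etfdh*. *Etfdh* had 173, 139 and 141 CPM in Ctrl replicates 1 to 3, 140 in the library labelled Ctrl replicate 4, and 149 and 137 in LSD1skm-/- replicates 1 and 2. Ctrl replicate 1 alone stood above the rest. Its log2 fold change was -0.06 (SE 0.12), and -0.08 (SE 0.13) without the library labelled Ctrl replicate 4, and the 3 members ran from -0.06 to 0.06 and from -0.08 to 0.04. Part of *Etfb*, 58.2% of its exon bases, is shared with overlapping annotations on the same strand.

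Ketone use was the step in which both LSD1skm-/- libraries were highest. *Oxct1*, which activates acetoacetate and commits ketone bodies to oxidation, had 402, 435 and 331 CPM in Ctrl replicates 1 to 3, 378 in the library labelled Ctrl replicate 4, and 499 and 487 in LSD1skm-/- replicates 1 and 2. *Bdh1*, which oxidizes beta-hydroxybutyrate to acetoacetate, had 84.1, 53.7 and 47.0 CPM in Ctrl replicates 1 to 3, 82.2 in the library labelled Ctrl replicate 4, and 92.0 and 92.3 in LSD1skm-/- replicates 1 and 2. For each gene the groups did not overlap, although for *Bdh1* Ctrl replicate 1 and the library labelled Ctrl replicate 4 came close to the LSD1skm-/- libraries. For *Oxct1* the log2 fold change was 0.35 (SE 0.13, unadjusted p = 0.0252, adjusted p = 0.557 by Benjamini-Hochberg in edgeR's quasi-likelihood test), and 0.34 (SE 0.13, adjusted p = 0.2) without the library labelled Ctrl replicate 4. For *Bdh1* it was 0.47 (SE 0.24, adjusted p = 0.571 in edgeR's quasi-likelihood test), and 0.58 (SE 0.23, adjusted p = 0.209). Antisense transcripts overlap 12.6% of the exon bases of *Oxct1* and 13.7% of those of *Bdh1*. *Acat1*, which splits acetoacetyl-CoA, had log2 fold changes of 0.17 and 0.16. Ketone use had a median log2 fold change of 0.35, and 0.34 without that library.

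Among the members *Pdk4* varied most between Ctrl replicates 1 to 3. It had 1121, 367 and 2108 CPM in Ctrl replicates 1 to 3, 1247 in the library labelled Ctrl replicate 4, and 1454 and 737 in LSD1skm-/- replicates 1 and 2. *Ucp3*, an uncoupling protein of muscle mitochondria that is induced with fat use, had 277, 207 and 412 CPM in Ctrl replicates 1 to 3, 284 in the library labelled Ctrl replicate 4, and 319 and 150 in LSD1skm-/- replicates 1 and 2. Ctrl replicate 3 was highest for both, followed by LSD1skm-/- replicate 1, the library labelled Ctrl replicate 4 and Ctrl replicate 1, while Ctrl replicate 2 and LSD1skm-/- replicate 2 held the lowest places. The log2 fold change of *Pdk4* was -0.14 (SE 0.58) and that of *Ucp3* -0.33 (SE 0.34), and -0.13 (SE 0.63) and -0.35 (SE 0.37) without the library labelled Ctrl replicate 4. *Ucp2* had log2 fold changes of 0.16 and 0.40. Between the highest and the lowest of Ctrl replicates 1 to 3, *Pdk4* differed 5.74-fold, and it was 1 of 3 members, with *Cpt1a* and *Plin5*, that differed by more than 2-fold, or 7.14%, against 3.72% of all genes, with a median of 1.3-fold over members and 1.2-fold over all genes. The direction for *Pdk4* and *Ucp3* rested on single libraries. *Pdk4* was at 0.26 without Ctrl replicate 3 and at 0.26 without LSD1skm-/- replicate 2, and at 0.56 and 0.28 when these were left out beside the library labelled Ctrl replicate 4. A replicate block, which also takes Ctrl replicates 3 and 4 out of the contrast, turned *Pdk4* to 0.69. It then passed p and fold as higher, with adjusted p = 0.0846 by Benjamini-Hochberg in edgeR's quasi-likelihood test. *Ucp3* was at 0.11 without LSD1skm-/- replicate 2, and at 0.09 without both that library and the library labelled Ctrl replicate 4. *Ucp3* was lower past p and fold when LSD1skm-/- replicate 1 was left out, from the 6 libraries and from the 5.

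**Figure D4:**
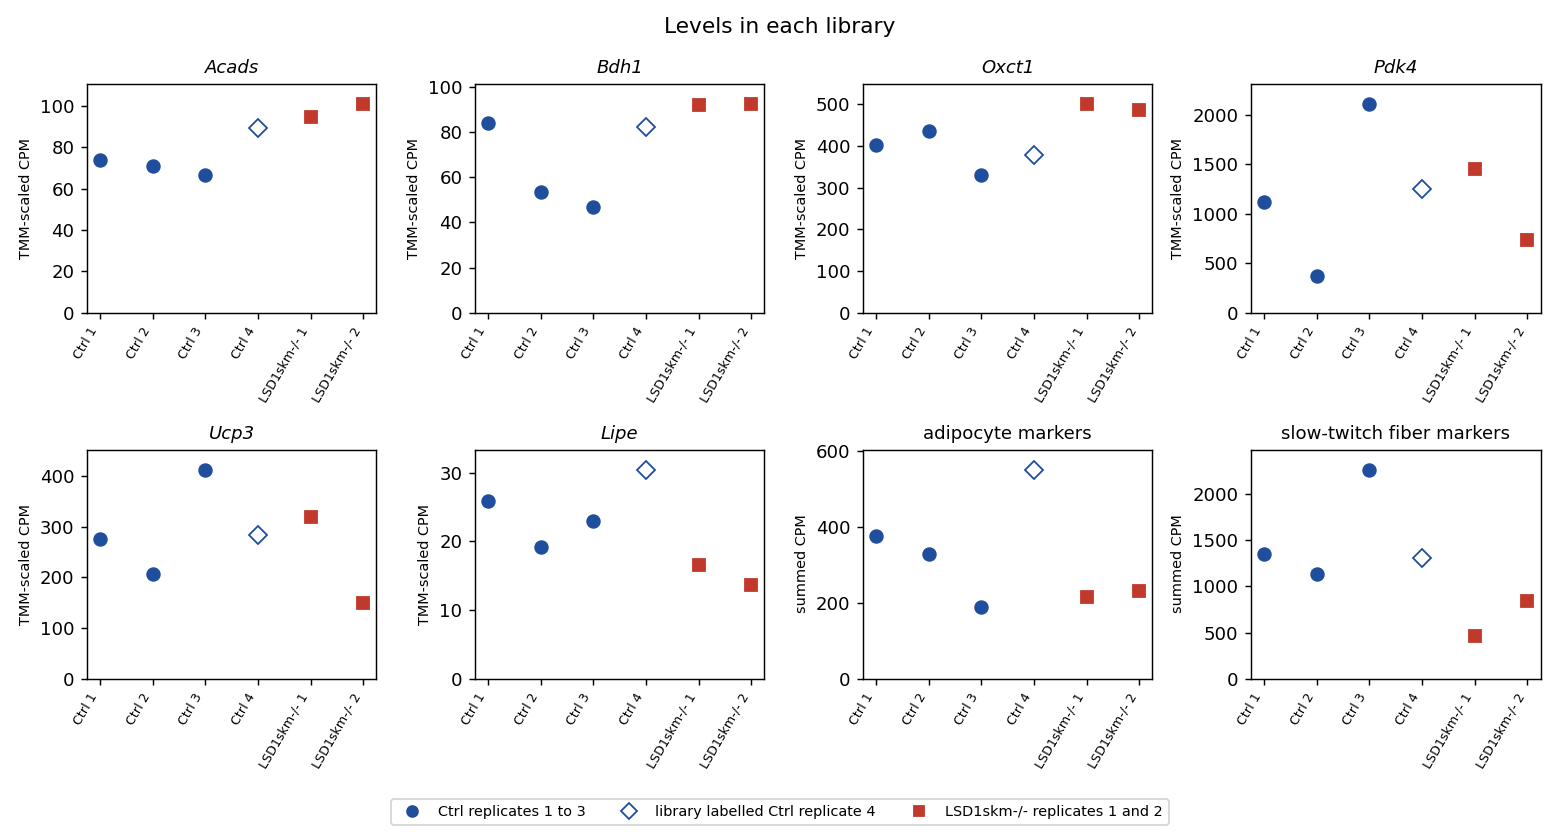
TMM-scaled CPM of Acads, Bdh1, Oxct1, Pdk4, Ucp3 and Lipe, and summed CPM of the adipocyte and slow-twitch fiber markers, in each library (circles, Ctrl replicates 1 to 3; open diamond, the library labelled Ctrl replicate 4; squares, LSD1skm-/- replicates 1 and 2). Acads, at 94.5 and 101 CPM, and Oxct1, at 499 and 487, are above every Ctrl library in both LSD1skm-/- libraries, and Pdk4 runs from 367 to 2108 within Ctrl.

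The proximal promoters of the members, 250 bases before to 50 after the start, were read from RefSeq for 36 of 42 members, with 44 promoters listed for them. On either strand GCGCATGC, a core of the NRF1 motif, was found in 4 of the 44, or 9.09%, against 2.71% of all 32851 promoters, and TCAAGGTCA, an extended half-site of the ERR receptors, in 1, or 2.27%, against 0.423%. Such a match is a run of letters and says nothing of binding. *Abhd5* and *Etfdh*, named above, are shown because they hold the first motif, in capitals, and *Acads* because it alone among members passed an adjusted p in edgeR with TMM scaling of the 5 libraries other than the library labelled Ctrl replicate 4. Its window holds neither motif. They lie at chr9:122351366-122351665 (plus strand), chr3:79628718-79629017 (minus strand) and chr5:115119297-115119596 (minus strand) of GRCm38.p6, written 5′ to 3′. In *Etfdh* the capitals hold 2 overlapping matches, 1 on each strand.
Abhd5: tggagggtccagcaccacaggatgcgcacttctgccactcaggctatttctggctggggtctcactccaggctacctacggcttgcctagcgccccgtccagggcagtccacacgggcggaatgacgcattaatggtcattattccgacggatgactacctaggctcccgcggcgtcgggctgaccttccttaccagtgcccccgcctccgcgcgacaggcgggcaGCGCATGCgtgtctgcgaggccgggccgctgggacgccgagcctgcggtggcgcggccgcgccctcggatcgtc
Etfdh: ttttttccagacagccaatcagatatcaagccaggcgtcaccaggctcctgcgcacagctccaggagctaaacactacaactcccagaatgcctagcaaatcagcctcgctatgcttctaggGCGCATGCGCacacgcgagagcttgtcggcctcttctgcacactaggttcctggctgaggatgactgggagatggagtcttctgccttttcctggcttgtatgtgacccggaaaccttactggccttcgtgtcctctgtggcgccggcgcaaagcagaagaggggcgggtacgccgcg
Acads: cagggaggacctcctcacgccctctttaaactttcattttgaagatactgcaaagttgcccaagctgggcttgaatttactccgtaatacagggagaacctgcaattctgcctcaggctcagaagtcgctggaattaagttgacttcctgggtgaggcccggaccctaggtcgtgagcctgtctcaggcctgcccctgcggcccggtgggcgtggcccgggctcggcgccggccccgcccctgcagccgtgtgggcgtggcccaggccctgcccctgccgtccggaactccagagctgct

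Genes of neighboring pathways, 97 in 8 lists, were read in the same fits. Of all genes tested, 3.43% were higher and 2.88% lower past p and fold with all libraries. Without the library labelled Ctrl replicate 4 these shares were 10.1% and 5.05%. The counts of each list below stand beside these shares and were not tested against them. Of 14 peroxisomal genes tested, 3 were higher and 0 lower past p and fold in each comparison. Without the library labelled Ctrl replicate 4, the peroxisomal genes *Abcd2*, an acyl-CoA carrier, and *Phyh*, phytanoyl-CoA hydroxylase, had log2 fold changes of 0.56 and 0.46, with adjusted p = 0.078 and 0.0865 by Benjamini-Hochberg in edgeR's quasi-likelihood test.

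Among 20 other genes of acyl-CoA metabolism, 1 passed p and fold in each comparison, as lower. This was the acyl-CoA synthetase *Acsl3*, with 35.4, 44.9 and 32.3 CPM in Ctrl replicates 1 to 3, 32.2 in the library labelled Ctrl replicate 4, and 20.6 and 21.6 in LSD1skm-/- replicates 1 and 2. Both LSD1skm-/- values lay below all Ctrl values, and the log2 fold change was -0.78 with all libraries and -0.83 without that library (SE 0.15, adjusted p = 0.0253 by Benjamini-Hochberg in edgeR's quasi-likelihood test, under 0.05 in 7 of 10 settings but not when Ctrl replicate 1 or either LSD1skm-/- library was left out as well). Of 13 pyruvate dehydrogenase genes, past p and fold 1 was higher and 1 lower among the other 5 libraries, and none when the library labelled Ctrl replicate 4 was kept. *Pdk3*, another kinase of the complex, had 0.722, 0.737 and 0.694 CPM in Ctrl replicates 1 to 3, 3.19 in the library labelled Ctrl replicate 4, and 2.17 and 2.71 in LSD1skm-/- replicates 1 and 2. The library labelled Ctrl replicate 4 thus had the highest level, and the log2 fold change was 0.84 (SE 0.64, adjusted p = 0.678 in the same edgeR test) with it and 1.76 without it (SE 0.22, adjusted p = 0.00585 in the same edgeR test, under 0.05 in 9 of 10 settings, and 0.0638 when LSD1skm-/- replicate 2 was left out as well). The lower gene was the pyruvate carrier subunit *Mpc1*, at -0.39.

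Of 11 synthesis and desaturation genes tested, 2 were lower past p and fold with all libraries, and in the comparison of the other 5 libraries 1 was higher and 1 lower. *Scd1*, stearoyl-CoA desaturase, had 107, 108 and 13.4 CPM in Ctrl replicates 1 to 3, 165 in the library labelled Ctrl replicate 4, and 9.81 and 13.5 in LSD1skm-/- replicates 1 and 2. Its libraries formed the same high and low sets as *Adipoq*, with Ctrl replicate 3 at the LSD1skm-/- level, and the part of fat cells was not tested. Its relative *Scd2*, the desaturase found in most tissues, had a log2 fold change of 0.59 with all libraries and 0.90 without the library labelled Ctrl replicate 4 (SE 0.18, adjusted p = 0.0318 by Benjamini-Hochberg in edgeR's quasi-likelihood test, under 0.05 in 6 of 10 settings). The call was lost when Ctrl replicate 1, 2 or 3 or LSD1skm-/- replicate 2 was left out as well, the last with 0.56 and adjusted p = 0.136. *Agpat2* of triglyceride synthesis had 6.23, 5.13 and 4.11 CPM in Ctrl replicates 1 to 3, 13.0 in the library labelled Ctrl replicate 4, and 10.9 and 10.5 in LSD1skm-/- replicates 1 and 2 (log2 fold change 0.58 with all libraries and 1.05 without the library labelled Ctrl replicate 4, SE 0.18, adjusted p = 0.0196 in the same test, under 0.05 in 8 of 10 settings but not when either LSD1skm-/- library was left out as well). For *Agpat2* the library labelled Ctrl replicate 4 was above both LSD1skm-/- libraries, for *Scd2* it lay between them, and with all libraries and group as the only term neither passed p and fold. In the list of 11 triglyceride genes 1 was higher and 1, *Dgat1* at -0.51, was lower past p and fold without that library, and 1 was lower with it.

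Among 10 other droplet and lipase genes, 1 was higher past p and fold with all libraries, and in the comparison of the other 5 libraries 1 was higher and 2 lower. *Plin3*, a perilipin, was the higher one, at 0.72 and 0.80, with adjusted p = 0.0697 without that library by Benjamini-Hochberg in edgeR's quasi-likelihood test. In the 3 other ketone genes tested, 1 was higher in each comparison. This was the monocarboxylate transporter *Slc16a1*, which takes up ketone bodies and lactate, with 58.1, 60.9 and 48.8 CPM in Ctrl replicates 1 to 3, 69.5 in the library labelled Ctrl replicate 4, and 83.2 and 78.1 in LSD1skm-/- replicates 1 and 2. Its groups did not overlap, and the log2 fold change was 0.44 with all libraries and 0.53 without that library (SE 0.12, adjusted p = 0.0498 in the same edgeR test, under 0.05 in 3 of 10 settings and in none with a further library left out). Of 11 receptors and coactivators, 1 was higher in each comparison, the orphan receptor *Esrrb*, at 0.61 and 0.75 (adjusted p = 0.557 and 0.0264 by Benjamini-Hochberg in edgeR's quasi-likelihood test, the latter under 0.05 in 6 of 10 settings, up to 0.166, and lost when any of the other 5 libraries but Ctrl replicate 1 was left out as well).

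Further marker lists were read beside these results. The summed CPM of the 9 endothelial genes, led by *Flt1*, ran from 295 to 348 in Ctrl replicates 1 to 3 and were 370 in the library labelled Ctrl replicate 4 and 265 in both LSD1skm-/- libraries, and *Cd36* is expressed in that cell type as well. The 6 fibroblast genes, led by *Dcn*, summed to 457, 429 and 475 in Ctrl replicates 1 to 3, 697 in the library labelled Ctrl replicate 4, and 606 and 716 in LSD1skm-/- replicates 1 and 2. Of these 6, 2 were higher past p and fold with all libraries and 5 without the library labelled Ctrl replicate 4, against 3.43% and 10.1% of all genes, and 2 then passed an adjusted p. The 5 red blood cell genes, led by *Hbb-bs*, ran from 28.1 to 43.6 in Ctrl replicates 1 to 3 and were 52.1 in the library labelled Ctrl replicate 4 and 64.0 and 65.7 in LSD1skm-/- muscle. Of these, 4 were higher past p and fold with all libraries and 5 without the library labelled Ctrl replicate 4, against the same shares of all genes. In the latter comparison 2 passed an adjusted p, against 5.39% of all genes. None of these lists had a gene at 0. For the 6 macrophage genes, led by *Lyz2*, sums ran from 28.5 to 67.6 in Ctrl replicates 1 to 3 and were 50.1 in the library labelled Ctrl replicate 4 and 43.7 and 72.2 in LSD1skm-/- libraries. The 3 smooth muscle genes, led by *Acta2*, ran from 50.7 to 62.0 in Ctrl replicates 1 to 3, with 100.3 in the library labelled Ctrl replicate 4, and were at 48.1 and 54.7 in LSD1skm-/- libraries. The brown adipocyte genes with a row, 2 of 3 and led by *Cidea*, summed to 4.62, 1.84 and 1.13 in Ctrl replicates 1 to 3, 8.05 in the library labelled Ctrl replicate 4, and 5.03 and 5.30 in LSD1skm-/- replicates 1 and 2, so that only the library labelled Ctrl replicate 4 was above the LSD1skm-/- libraries, with *Ucp1* at 0 in Ctrl replicate 3 and LSD1skm-/- replicate 1. The part of these lists, and of the fiber type lists, in the members' differences was not tested.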

How the data were processed

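Single-end RNA-seq reads of 50 bases were mapped by the authors to mm10, and per the paper's methods uniquely aligned reads were kept; what was deposited are raw counts per gene; submitters' notes name bcl2fastq 2.20.0.422. How strand was used in counting is not given in the sources used here. 1 pathway gene and 1 marker list are not reported here. The comparison was planned as 4 against 4 libraries, and 6 of 8 labelled libraries were analysed. Genes with a mean count above 50 were tested with edgeR 4.0.16 in R 4.3.3 (TMM scaling, quasi-likelihood test, group as the only term, Benjamini-Hochberg adjustment over all genes tested). DESeq2 1.42.0, other scalings and filters, a replicate block and each library left out were alternatives. The test was tried on simulated data. Exon lengths, overlaps and shared stretches of 50 bases came from GENCODE vM21 (GRCm38). Members and lists were chosen with earlier results of these data known. Values in every library are given for 13 members set by name, for members with an unadjusted p under 0.05 in either fit and for the extremes; other members named for a value were chosen after their values were seen. For the other lists up to 5 genes each, with the smallest p without Ctrl replicate 4, could be named, and at most 3, with an unadjusted p under 0.05, were considered. Log2 CPM used a prior count of 2.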

Additional observations from a re-analysis of the deposited data

Results flagged for a closer look

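In 61 sets of 4 Ctrl values, 7 had a library whose gap to its nearest neighbor exceeded Dixon's 95% critical share of the whole range, which chance gives in about 1 of 20 sets. That rate does not hold for the pathway genes among them, such as *Scd2*, *Mgll* and *Pdk3*, which were chosen by their p without Ctrl replicate 4, a choice that favors sets in which this library stands apart. In 6 of the 7 it was the library labelled Ctrl replicate 4. It was low for *Kdm1a* (0.879 of the range) and *Acacb* (0.855), and high for *Scd2* (0.837), *Mgll* (0.919), *Pdk3* (0.961) and the summed fibroblast markers (0.83). For *Etfdh* the library apart was Ctrl replicate 1, which was high (0.918).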

How the results depend on the processing

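Ctrl replicates 3 and 4 have no LSD1skm-/- library of the same number among those analysed, so a replicate block also takes both out of the contrast. For the counts below, its effect cannot be told from that of leaving these libraries out. Values of single genes could differ between the block and leaving out Ctrl replicate 4 alone, as for *Pdk4*, at 0.69 and -0.13. With all 6 libraries, 717 genes passed p and fold. With no filter beyond 1 count 1909 did, with a replicate block 1668, and with each library left out in turn from 340 to 1724. For the count of genes past adjusted p, edgeR gave 0, against 46 with DESeq2, 149 with no filter, 632 with the block and from 0 to 612 with a library left out. Members past p and fold numbered 1 (2.38% against 6.31% of all genes), against 3 with library size scaling (7.14% against 5.1%), 3 with no filter (7.14% against 7.06%), 2 with filterByExpr (4.76% against 6.56%) and 6 with the block (14.3% against 14.7%). They numbered 3 with no fold threshold (7.14% against 8.9%). With a Ctrl library left out they numbered 1 to 3 (2.38% to 7.14%, against 4.17% to 15.2%). Members past an adjusted p numbered 0, against 1, *Lipe*, with no filter and 0 to 1 with a library left out. *Kdm1a* was at -2.58 with no filter, -2.80 with the block, both then past an adjusted p of 0.05, and from -2.91 to -2.32 with a library left out. Where 1 LSD1skm-/- library is left, it is assumed to vary like the Ctrl libraries. The cause was not tested.

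Same-numbered libraries had correlations of deviations of -0.233 and -0.0334 over only 2 pairs. No label says what a number marks, and these values cannot show whether the numbers pair the samples, so no pairing was assumed. With the replicate block the log2 fold change turned to -0.02 for *Lpl*, 0.03 for *Cd36*, -0.08 for *Cpt1b*, -0.02 for *Acacb* and 0.69 for *Pdk4*, which then passed p and fold as higher (adjusted p = 0.0846), as did *Slc27a1*. With the block *Pdk3* was at 1.73, *Scd2* at 0.84, *Agpat2* at 0.92 and *Esrrb* at 0.74, each then past an adjusted p of 0.05, as were *Acsl3* and *Scd1* as lower. With a library left out, values with a change of sign ran from -0.05 to 0.12 for *Lpl*, -0.13 to 0.01 for *Cd36*, -0.14 to 0.06 for *Pnpla2*, -0.25 to 0.25 for *Cpt1b*, -0.09 to 0.13 for *Acacb*, -0.12 to 0.03 for *Etfdh*, and -0.03 to 0.25 for *Mgll*. The log2 fold change of Pdk4 ran from -0.72 to 0.26 and the log2 fold change of Ucp3 from -0.98 to 0.11.

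Alternatives for the comparison without Ctrl replicate 4 were chosen after seeing the data. There 612 genes passed an adjusted p, against 1056 with DESeq2 and 143 to 504 with a further library left out. The 3 members past p and fold (7.14% against 15.2% of all genes) were 7 with library size scaling (16.7% against 16.3%). They were 6 with no fold threshold (14.3% against 20.2%). With a further Ctrl library left out they were 7 without replicate 1 (16.7% against 14.7%), 3 without replicate 2 (7.14% against 15.6%) and 2 without replicate 3 (4.76% against 14.9%). The 1 member past an adjusted p (2.38% against 5.39%) became 2 with DESeq2, which adds *Lipe*. It became 0 to 2 with a further Ctrl library left out. DESeq2 and DESeq2 size factors in edgeR turned *Lpl* and *Cd36* to 0.00. Library size scaling turned *Pnpla2* to 0.00, *Cpt1b* to 0.04 and *Acacb* to 0.04. With a further library left out, ranges were -0.09 to 0.16 for *Lpl*, -0.09 to 0.11 for *Cd36*, -0.18 to 0.09 for *Pnpla2*, -0.31 to 0.19 for *Cpt1b*, -0.15 to 0.07 for *Acacb*, and -0.15 to 0.03 for *Etfdh*. For the log2 fold change of Pdk4, without Ctrl replicate 4, the range was -0.71 to 0.56, and for the log2 fold change of Ucp3, without Ctrl replicate 4, it was -1.0 to 0.09. The cause was not tested.

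Of the log2 fold changes of single genes under all alternatives, 750 kept their direction and their side of the threshold, 30 were no longer past it, 33 came past it and 45 changed sign. The level of the median member was 53.1 CPM per kilobase with the longest coding transcript as length, against 33.1.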
